A study of Drosophila melanogaster with 3 samples.

Results

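Small nucleolar RNAs (snoRNAs) other than those named as guides to 18S or 28S rRNA were described in heads of adult Drosophila melanogaster males. They were chosen by name: every gene whose FlyBase symbol begins with snoRNA: or scaRNA:, except the 181 guides named for a position in 18S or 28S rRNA. That gave 93 of the 3546 noncoding genes in the authors' deposited table. By symbol they fell into 3 U3 genes, 2 U14 genes, 11 other U-named genes, 15 orphan box C/D genes (Or-CD), 9 orphan H/ACA genes (Or-aca), 17 small Cajal body RNAs (scaRNAs) and 36 genes with other names, many of them called after a host gene. No measured value entered the choice. The study, by its title, is about Sex-lethal and RNA polymerase III in male neurons. The comparison gives the observed differences of these snoRNAs between heads with a Sex-lethal transgene and control heads.

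Flies of the Sxl-RAC group carried ;tub-GAL80ts;nSyb-GAL4 x UAS-SxlRAC, so that the pan-neuronal nSyb-GAL4 driver made Sxl-RAC, a form of the RNA-binding sex determination protein Sex-lethal, in adult male neurons. The control was nSyb-GAL4 x UAS-mCherry attP2, in which the driver made a red fluorescent protein. The labels describe flies kept at 18 °C and moved to 29 °C on eclosion for 4 days, the step that relieves the temperature-sensitive GAL80 repressor, and small RNA libraries from whole heads, although they give the molecule as polyA RNA. They write tub-GAL80ts only in the Sxl-RAC cross and list 3 Sxl-RAC samples. If the crosses differed as written, differences due to Sxl-RAC and to tub-GAL80ts cannot be told apart. The mean counts of the authors' comparison resolved into whole reads of 6 libraries, 3 per arm. Since neurons expressed the transgene and whole heads were sampled, fewer cells of a type and less RNA per cell cannot be told apart.

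Box C/D snoRNAs form particles with fibrillarin and the nop5 protein that methylate the ribose 2′-hydroxyl of a target nucleotide. H/ACA snoRNAs form particles with dyskerin (Nop60B in flies) that turn uridine into pseudouridine. Most fly snoRNAs are cut out of introns of host genes. U3 and U14 instead serve chiefly in cleaving the rRNA precursor, scaRNAs guide the modification of spliceosomal snRNAs in the Cajal body, and orphan snoRNAs were named for having no known target. The label is loose at its edges: snoRNA:Me5.8S-G74, snoRNA:MeU6-A47 and snoRNA:MeU6-C68 carry their target in their names, and the RefSeq table lists an rRNA methylation name for both U49 genes.

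None of the 93 RNAs passed the authors' threshold, an adjusted p under 0.05 in DESeq2's Wald test, in either direction. Of the 93, 79 had reads, 35 reached a mean normalised count of 10 (reads divided by size factors, averaged over the 6 libraries) and 14 had no reads in the authors' deposited table. The smallest adjusted p was 0.408. The background was low: 1.21% of the 248 snoRNA genes tested were called (3 genes, all rRNA methylation guides), and 5.14% of all 1128 genes with an adjusted p. At an unadjusted p under 0.05 stood 5 of the 79, 2 higher and 3 lower, where 4.84% of the snoRNA class lay below that value, so the share was near the background. The median log2 fold change of the 35 more abundant RNAs was 0.04 by the authors' deposited table, against 0.05 for the 108 snoRNAs and -0.01 for the 529 genes of any class with that count. Of the 35, 19 were above 0 and 16 below, beside 46.3% of those 108 snoRNAs below 0; this split depends on the scaling, with 14 above and 21 below on the microRNA scale described next.

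The precision sets what could be called. With the other genes of the class as they were, 1 more gene would have been called at an unadjusted p of up to 0.000806, a change of 3.35 standard errors. At the median standard error of the 35 RNAs, 0.24 in the authors' deposited table, this is a log2 change of 0.80. At the smallest, 0.15, it is 0.51, and at the median of 0.87 for the 42 RNAs of the class with fewer reads it is 2.91. For each RNA of the class, an observed difference under 3.35 of its standard errors would not have been called, with the other genes as they were. This is not a limit on the true differences. Size factors differed by up to 2.79 times between libraries, and the decoded reads of 64 of the RNAs came to 1175, 1044 and 718 in the Sxl-RAC libraries and 1984, 1196 and 870 in the control libraries. The snoRNA class was scaled by the authors on its own, and on the scale of the microRNA class every snoRNA fold change is lower by 0.15 (log2); there 1.61% of the class was called lower, again none of the 93. As a check of the tissue, the authors' deposited table gave mir-276a, abundant in brain, a mean count of 244708 and the neuronal mir-124 only 12.9, while the testis and ovary microRNAs mir-310 to mir-313 and mir-959 to mir-964 were each under 1. The head and brain microRNAs mir-7 and mir-9a had mean counts of 15226 and 2342 there. Their log2 fold changes were -0.48 (adjusted p = 2.82e-05) and -0.20 (adjusted p = 0.049), against 0.11 for mir-276a (adjusted p = 0.354, authors' DESeq2 Wald test). Their bearing on the snoRNA values was not tested.

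**Figure D1:**
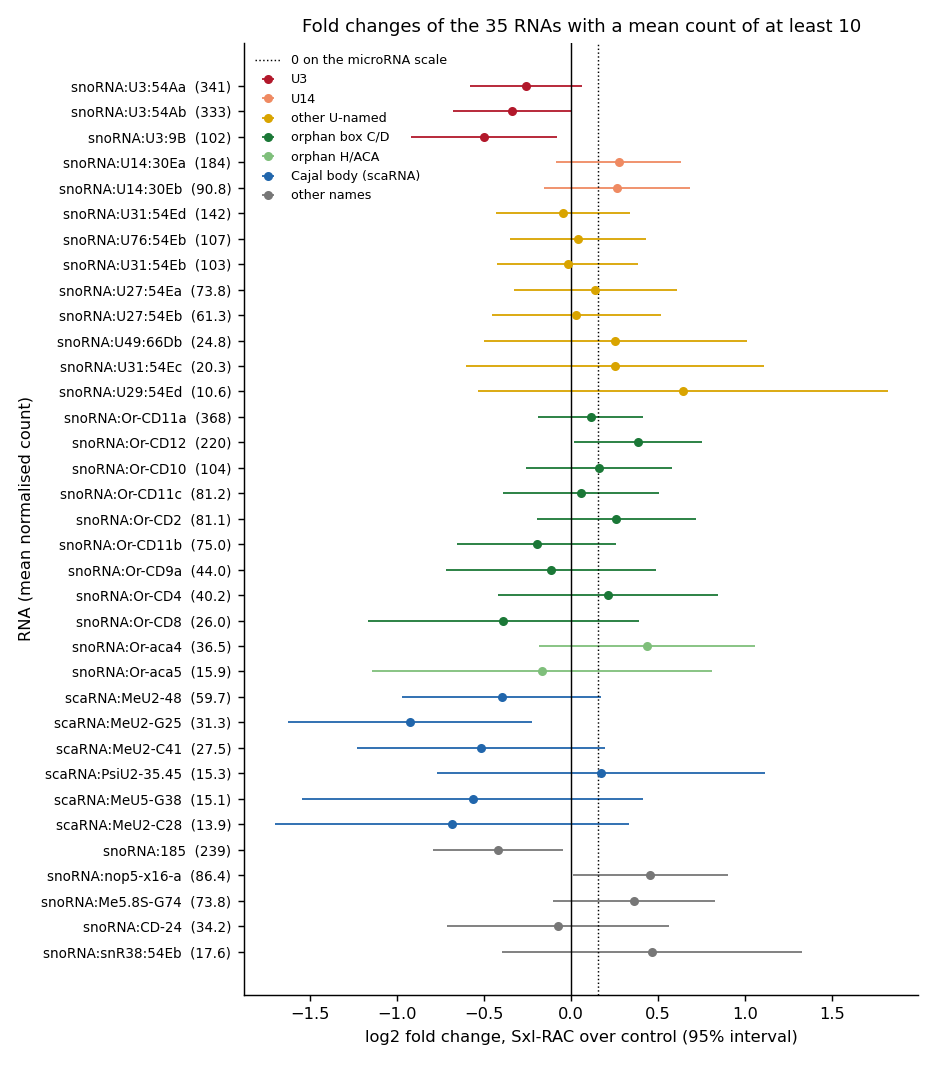
Log2 fold change, Sxl-RAC over control, with 95% intervals from its standard error for the 35 RNAs with a mean normalised count of at least 10, coloured by group with the mean count in brackets. The 3 U3 genes and 5 of the 6 Cajal body RNAs lie below 0, both U14 genes above it, and 5 intervals leave out 0.

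U3 is a long box C/D RNA that pairs with the rRNA precursor, and its 3 annotated genes all lay in intergenic sequence with no host, on BDGP6.54. In the authors' deposited table, snoRNA:U3:54Aa had a mean count of 340.8 and a log2 fold change of -0.26 ± 0.16 (standard error), and snoRNA:U3:54Ab a mean count of 332.6 and -0.34 ± 0.17. Their fold changes correspond to about 310.5 normalised reads in Sxl-RAC heads and 371 in control heads for snoRNA:U3:54Aa. For snoRNA:U3:54Ab they correspond to 294 in Sxl-RAC heads and 371 in control heads. The gene on the X chromosome, snoRNA:U3:9B (chromosome X, 10348125 to 10348337, plus strand), had a mean count of 101.7 and stood at -0.50 ± 0.21 in the authors' deposited table, with an unadjusted p of 0.0193 and an adjusted p of 0.598. The 95% interval of that ratio ran from 0.529 to 0.945. The value was below 0 at all 3 U3 genes, and none passed the test. How reads matching several copies were assigned is not given in the sources used here, so the 3 values may share reads and are not counted as separate evidence.

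U14, which acts with U3 in freeing 18S rRNA from its precursor, is encoded by 2 genes in introns of Uhg2, a noncoding host gene. In the authors' deposited table, snoRNA:U14:30Ea had a mean count of 184.0 and a log2 fold change of 0.27 ± 0.18, and snoRNA:U14:30Eb 90.8 and 0.26 ± 0.21, with adjusted p of 0.908 and 0.931. By library snoRNA:U14:30Eb, recovered from the authors' deposited table, had 101, 109 and 87.4 normalised reads in Sxl-RAC heads and 81.6, 92.3 and 74.1 in control heads. The arms overlapped in this range. U3 and U14 thus had values of opposite sign, no gene of either passed the test, and the difference between them was not tested. As for U3, the U14 copies may share reads, and so may other RNAs with several copies, such as U31 and Or-CD11. Values of such copies are not counted as separate evidence.

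The targets of these processing RNAs were read in other classes, each on its own scale. Of 5 rRNA or rRNA precursor genes with a p, 1 was called: pre-rRNA:CR45856 fell by 1.58 on the log2 scale (standard error 0.25, adjusted p = 2.96e-08, authors' DESeq2 Wald test) at a mean count of 4657 in the authors' deposited table. The other 3 precursor genes were below 0 as well and were not called: pre-rRNA:CR45846 stood at -0.73 ± 0.27 (unadjusted p of 0.00667, adjusted p of 0.229), pre-rRNA:CR45847 at -1.19 ± 0.50 (0.0169 and 0.348) and pre-rRNA:CR45845 at -0.81 ± 0.55 in the authors' deposited table. The mature 2SrRNA:CR45864 stood at 0.06 ± 0.32 there. Reads of the precursor copies may be shared. RNase MRP RNA, which cuts the same precursor, stood at 0.51 ± 0.74 and RNase P RNA at 0.05 ± 0.46 in the authors' deposited table, and neither was called.

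The 11 other U-named genes are box C/D RNAs named after vertebrate relatives that guide rRNA methylation. Of these, 9 sit in introns of Uhg1, a noncoding gene that serves as host to a row of snoRNAs, and 2 in introns of the ribosomal protein gene RpL14. They stayed close to 0 where counts were high: in the authors' deposited table, snoRNA:U31:54Ed had a mean count of 141.6 and a log2 fold change of -0.05 ± 0.20, snoRNA:U76:54Eb 107.0 and 0.04 ± 0.20, and snoRNA:U31:54Eb 102.8 and -0.02 ± 0.21. Further down, the authors' deposited table gave 0.14 for snoRNA:U27:54Ea, 0.03 for snoRNA:U27:54Eb, 0.25 for both snoRNA:U49:66Db and snoRNA:U31:54Ec, and 0.64 ± 0.60 for snoRNA:U29:54Ed, which at 10.6 was the member just above the count limit. snoRNA:U49:66Da, at 9.71, was the one just below it. The libraries of snoRNA:U27:54Eb, recovered from the authors' deposited table, held 63.7, 62.6 and 58.8 normalised reads in Sxl-RAC heads against 58.9, 58.0 and 65.6 in control heads. These ranges lie on top of each other.

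Uhg1 also holds snoRNA:snR38:54Eb and snoRNA:snR38:54Ec, which makes 11 RNAs from 1 host transcript. In the authors' deposited table their fold changes ran from -0.40 to 0.64, 8 above 0 and 3 below, against 4 above and 7 below on the microRNA scale. Uhg1 itself had a mean count of 667.8, and the 16 snoRNAs inside it summed to 676.5 there, so the reads counted for the host are close to those of its snoRNAs. The log2 fold change of Uhg1, 0.16 ± 0.14 in the authors' deposited table, is then not a separate measure of the host.

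The orphan box C/D RNAs included the most abundant of all 93. RpL28, a ribosomal protein gene, holds a group of 4 within chromosome 3L from 3221350 to 3222541 on the minus strand. snoRNA:Or-CD11a had a mean count of 367.7 and a log2 fold change of 0.11 ± 0.15 by the authors' deposited table, and the 95% interval of its ratio ran from 0.878 to 1.33. Its neighbour snoRNA:Or-CD12, listed in the RefSeq table also as DmU24, had a mean count of 220.3 and 0.39 ± 0.19, unadjusted p of 0.0404 and adjusted p of 0.908 in the authors' deposited table. That corresponds to about 249.6 normalised reads in Sxl-RAC heads and 191 in control heads. The 2 other copies of the group differed in sign, 0.06 ± 0.23 for snoRNA:Or-CD11c and -0.20 ± 0.23 for snoRNA:Or-CD11b in the authors' deposited table. For snoRNA:Or-CD11b the libraries recovered from that table held 63.7, 72.5 and 75.4 normalised reads in Sxl-RAC heads against 90.2, 78.0 and 70.4 in control heads, and the arms overlapped.

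Elsewhere among orphan box C/D RNAs no gene was called. The 9 that reached a mean count of 10 ran from -0.39 to 0.39 on the log2 scale in the authors' deposited table, 6 above 0 and 3 below. Among them, snoRNA:Or-CD10 in RpL7A was at 0.16 ± 0.21, snoRNA:Or-CD2 in Uhg4 at 0.26 ± 0.23, snoRNA:Or-CD4 in Uhg5 at 0.21 ± 0.32 and snoRNA:Or-CD9a in Nop60B at -0.12 ± 0.31 there. Of the 12 with reads, 6 were above 0 and 6 below. snoRNA:Or-CD15, snoRNA:Or-CD9b and snoRNA:Or-CD16 had mean counts of 5.89, 2.58 and 0.307 in the authors' deposited table, and snoRNA:Or-CD13, snoRNA:Or-CD14 and snoRNA:Or-CD17 had none.

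The orphan H/ACA RNAs were scarcer. snoRNA:Or-aca4 overlaps an exon of CG44403 on the other strand, and whether counting used strand is not given in the sources used here. It led the group with a mean count of 36.5 and a log2 fold change of 0.44 ± 0.32 by the authors' deposited table (adjusted p of 0.908). Its recovered libraries held 40.9, 40.6 and 43.7 normalised reads in Sxl-RAC heads and 27.6, 28.5 and 37.7 in control heads. All 3 Sxl-RAC libraries were above all 3 control libraries. snoRNA:Or-aca5, in Uhg4, stood at -0.17 ± 0.50 in the authors' deposited table, with 14.6, 22.0 and 7.54 normalised reads in Sxl-RAC heads and 12.4, 16.2 and 23.1 in control heads. snoRNA:Or-aca3 and snoRNA:Or-aca1, in introns of RpL4 and RpS16, had mean counts of 5.27 and 5.20 there, snoRNA:Or-ACA9 had 0.0841, and the other 4 had no reads.

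**Figure D2:**
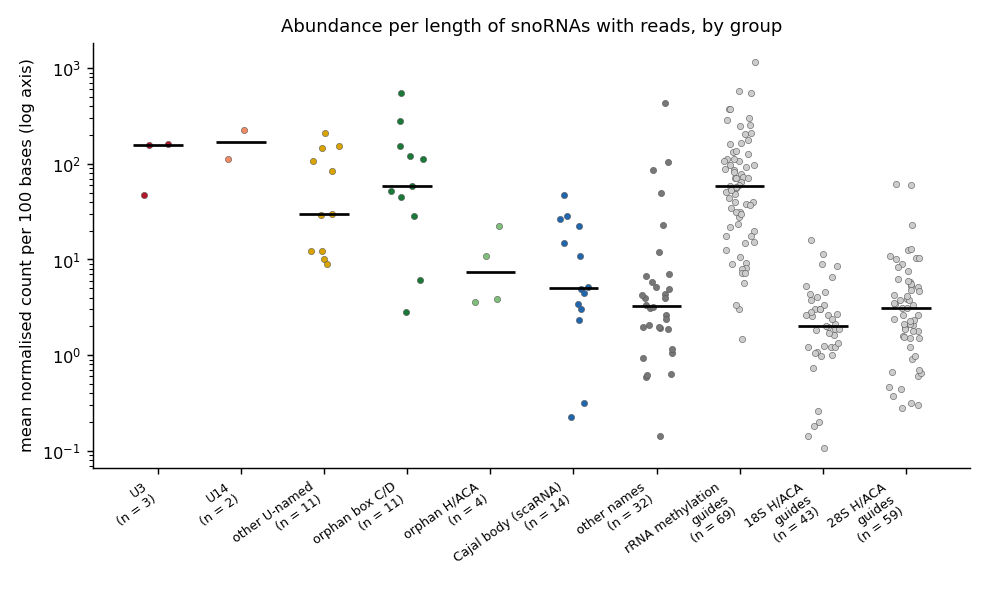
Mean normalised count per 100 bases of gene length (log axis) of every snoRNA with reads in the snoRNA class, by group, with the 3 families of rRNA guides in light grey. Bars are medians: 158 for U3, 170 for U14, 30.2 for other U-named and 58.0 for orphan box C/D RNAs, against 7.32 for orphan H/ACA, 5.06 for Cajal body RNAs and 3.25 for RNAs with other names.

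Compared per length, box C/D RNAs had more reads than H/ACA RNAs. Median mean counts per 100 bases were 158 for U3, 170 for U14, 58.0 for orphan box C/D and 30.2 for other U-named RNAs, against 58.8 for the box C/D guides of rRNA methylation. Orphan H/ACA RNAs had a median of 7.32, beside 2.00 for 18S and 3.07 for 28S pseudouridylation guides. The median annotated length was 73 bases for other U-named, 81 for U14 and 91 for orphan box C/D genes, against 142 for orphan H/ACA genes, while U3, at 210 bases, was longer than these. A small RNA library favours short inserts, and the part of length in these differences was not tested.

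The Cajal body RNAs were the group farthest from 0. Of 17, 14 had reads, 11 of them were below 0 and 3 above in the authors' deposited table, with a median log2 fold change of -0.65, where 44.8% of the snoRNA class lay below 0. None was called. Splitting them by name, a choice made after their values were known, put all 8 methylation guides with reads (MeU) below 0, from -0.40 to -1.02, and the 6 pseudouridylation guides (PsiU) on both sides, from -1.63 to 0.44. The split follows the symbols only. Whether an RNA such as scaRNA:MeU5-C46 guides both kinds of modification was not examined.

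Most reads came from guides to U2, the snRNA that pairs with the branch point. scaRNA:MeU2-G25, in an intron of mask (chromosome 3R, 24237166 to 24237284, plus strand), held 16.4, 22.0 and 27.1 normalised reads in Sxl-RAC heads against 34.6, 46.6 and 41.3 in control heads, recovered from the authors' deposited table. The Sxl-RAC libraries were all below the control libraries, with means of 21.8 ± 5.39 and 40.8 ± 6.03 (SD, n = 3 each). Its log2 fold change was -0.92 ± 0.36 in the authors' deposited table, the smallest p of the 93 RNAs at 0.00987 unadjusted, and the adjusted p was 0.408. The ratio of 0.528 had a 95% interval from 0.325 to 0.857. Behind it stood 18, 20 and 18 whole reads in Sxl-RAC heads and 64, 49 and 34 in control heads.

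scaRNA:MeU2-C41, in an intron of lds, had 20.9, 23.1 and 24.1 normalised reads in Sxl-RAC heads and 30.8, 38.1 and 27.9 in control heads. Here too the arms did not overlap, and the log2 fold change was -0.52 ± 0.36 (adjusted p of 0.908) in the authors' deposited table. scaRNA:MeU2-48, in an intron of hfp and the most abundant scaRNA at a mean count of 59.7, had 57.3, 42.8 and 55.8 normalised reads in Sxl-RAC heads and 76.7, 85.6 and 40.1 in control heads. A control library was below every Sxl-RAC library, and the log2 fold change was -0.40 ± 0.29 in the authors' deposited table. scaRNA:MeU2-C28, in Stt3A, stood at -0.68 ± 0.52, with 8.19, 10.98 and 13.6 normalised reads in Sxl-RAC heads and 20.5, 19.0 and 10.9 in control heads.

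**Figure D3:**
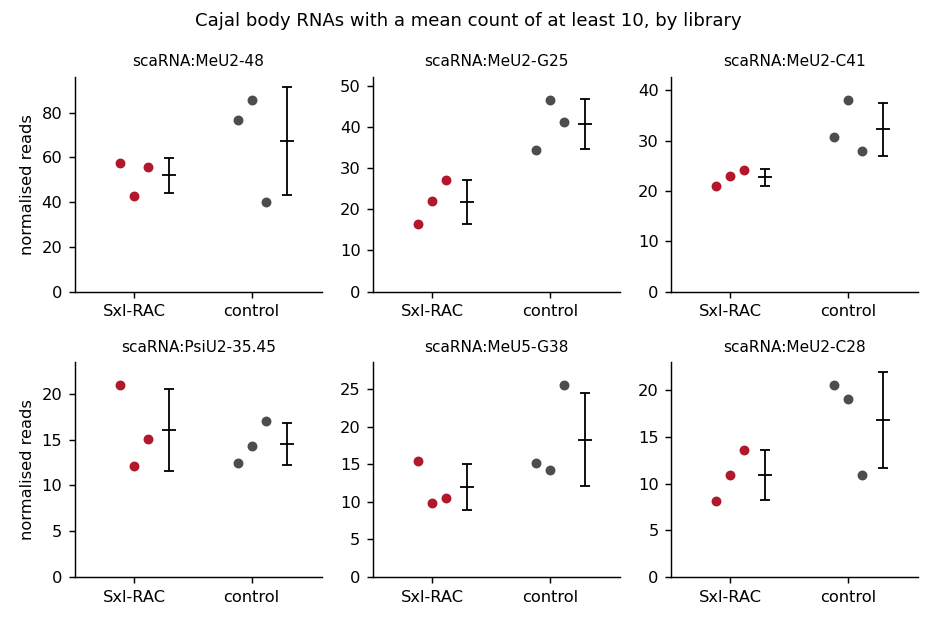
Normalised reads per recovered library of the 6 Cajal body RNAs with a mean count of at least 10, Sxl-RAC left and control right; bars show mean and SD (n = 3 each), and libraries carry no replicate number. For scaRNA:MeU2-G25 and scaRNA:MeU2-C41 every Sxl-RAC library lies below every control library, and for the other 4 the arms overlap.

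The guides to other snRNAs had fewer reads. scaRNA:MeU5-G38 stood at -0.56 ± 0.50 in the authors' deposited table, with 15.5, 9.88 and 10.6 normalised reads in Sxl-RAC heads and 15.1, 14.3 and 25.5 in control heads. scaRNA:MeU5-C46, which RefSeq also lists as U85, was at -0.71 ± 0.63 and scaRNA:MeU4-A65 at -1.02 ± 0.70 there. scaRNA:MeU5-U42 had 4.55, 3.29 and 3.02 normalised reads in Sxl-RAC heads and 7.02, 7.61 and 7.29 in control heads, without overlap, and stood at -0.98 ± 0.80 in the authors' deposited table.

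Of the pseudouridylation guides only scaRNA:PsiU2-35.45, in Gp210, reached a mean count of 10. It had 20.9, 12.1 and 15.1 normalised reads in Sxl-RAC heads and 12.4, 14.3 and 17.0 in control heads, with a log2 fold change of 0.17 ± 0.48 by the authors' deposited table. scaRNA:PsiU6-40 had 1.82, 1.10 and 4.52 normalised reads in Sxl-RAC heads and 7.02, 9.52 and 4.86 in control heads, and stood at -1.63 ± 0.93 there (adjusted p of 0.908). scaRNA:PsiU2-38.40.42 was at 0.44 ± 0.75, scaRNA:PsiU1-6 at -0.62 ± 1.00, and scaRNA:PsiU2-55 and scaRNA:PsiU5-44 had mean counts of 0.559 and 0.31 in the authors' deposited table. scaRNA:MeU1:95C-A24, scaRNA:MeU1b-A234 and scaRNA:MeU4:25F-C137 had no reads.

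Summed over the 8 methylation guides, the recovered libraries held 141, 123 and 142 normalised reads in Sxl-RAC heads and 211, 239 and 166 in control heads. The sums did not overlap, with means of 135 ± 10.6 and 205 ± 36.5 (SD, n = 3 each) and a log2 ratio of -0.60. The 6 pseudouridylation guides summed to 33.7, 22.0 and 31.7 in Sxl-RAC heads and 31.3, 34.3 and 31.6 in control heads, a log2 ratio of -0.15, and these overlapped. No test of the sums or of the difference between the kinds of guide was made, since the split followed the values. Per 100 bases, methylation guides had a median mean count of 18.8 and pseudouridylation guides 2.86.

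No change in read counts was called for the snRNAs that these RNAs modify, and the modification itself was not measured. In the authors' deposited table, none of the 23 spliceosomal snRNA genes with a p was called by the authors' DESeq2 test and none had an unadjusted p under 0.05. Their log2 fold changes, on the scale of their own class, ran from -0.31 to 0.59 with a median of 0.06, and the 6 U2 genes from -0.31 to 0.35. The snRNA class was scaled separately from the snoRNA class, so levels of guide and target cannot be set against each other.

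**Figure D4:**
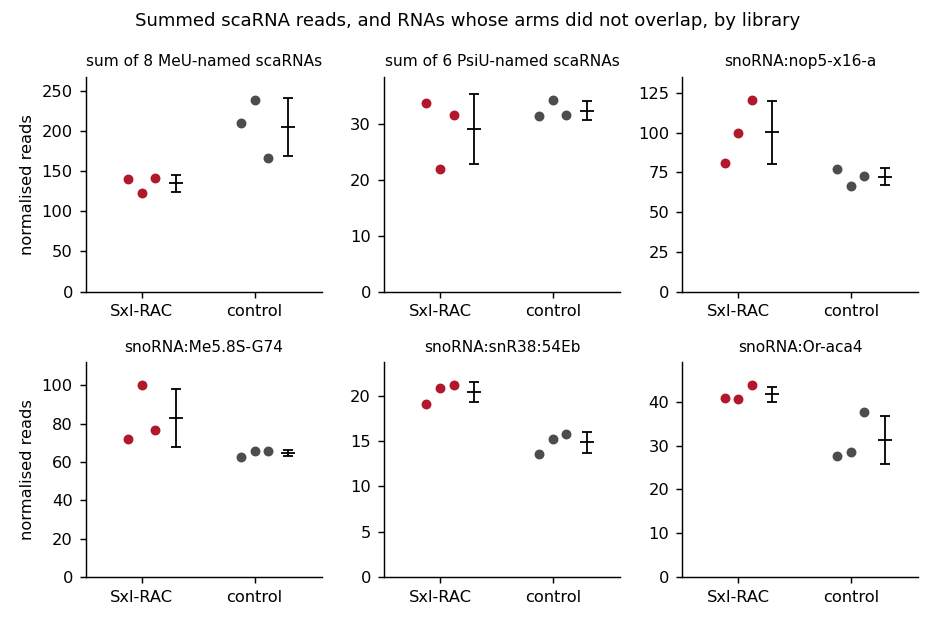
Normalised reads per recovered library, Sxl-RAC left and control right, with mean and SD (n = 3 each): summed over the 8 methylation and 6 pseudouridylation guides among scaRNAs, and for the 4 snoRNAs of a mean count of at least 10 whose Sxl-RAC libraries all exceeded the control libraries. The methylation guides sum to 123 to 142 in Sxl-RAC heads and 166 to 239 in control heads.

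Among the 36 RNAs with other names, 32 had reads and only 5 reached a mean count of 10. snoRNA:185, a gene of 55 bases in intergenic sequence that RefSeq also lists under an orphan box C/D name, was the most abundant, with a mean count of 239.2 and a log2 fold change of -0.42 ± 0.19 by the authors' deposited table. Its unadjusted p was 0.0269 and its adjusted p 0.742, and its values correspond to about 205 normalised reads in Sxl-RAC heads and 274 in control heads. snoRNA:nop5-x16-a lies in an intron of nop5, the gene of a core box C/D protein (chromosome 2L, 6917210 to 6917310, minus strand). It had 81.0, 99.9 and 121 normalised reads in Sxl-RAC heads and 77.3, 66.6 and 72.9 in control heads, with no overlap. The log2 fold change was 0.46 ± 0.23 in the authors' deposited table, with an unadjusted p of 0.0444 and an adjusted p of 0.908.

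snoRNA:Me5.8S-G74, named for a base of 5.8S rRNA, overlaps an exon of lncRNA:CR45184. Its libraries held 71.9, 99.9 and 76.9 normalised reads in Sxl-RAC heads and 62.7, 65.7 and 65.6 in control heads, again without overlap, and its log2 fold change was 0.36 ± 0.24 (adjusted p of 0.908) in the authors' deposited table. snoRNA:snR38:54Eb in Uhg1 had 19.1, 20.9 and 21.1 normalised reads in Sxl-RAC heads and 13.5, 15.2 and 15.8 in control heads, and stood at 0.46 ± 0.44 there. snoRNA:CD-24, in RpS3A, was at -0.07 ± 0.33 with overlapping arms.

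The 27 rarer RNAs with other names, 17 above and 10 below 0 in the authors' deposited table, had few reads and wide errors. snoRNA:229, in an intron of the fibrillarin gene Fib, stood at -1.27 ± 0.74 in the authors' deposited table, with 4, 5 and 2 whole reads in Sxl-RAC heads and 18, 13 and 6 in control heads. Both snoRNAs in introns of SC35, a splicing factor gene, were above 0, snoRNA:SC35-b at 0.96 ± 0.67 and snoRNA:SC35-a at 0.89 ± 0.87 there, and the 4 in lola ran from -0.56 to 0.51. The value farthest from 0 was that of snoRNA:660, -3.16 ± 1.66 at a mean count of 1.91 in the authors' deposited table. Its recovered whole reads were 1 in Sxl-RAC heads, in a single library, and 12, 3 and 1 in control heads. These reads missed the deposited log2 fold change by 0.22. snoRNA:660 overlaps an exon of Act57B, a muscle actin gene, and the muscle microRNAs of the same table were at -0.46 ± 0.08 (mir-1, adjusted p = 1.41e-06) and 0.23 ± 0.08 (mir-133, adjusted p = 0.0173). Their part in the result was not tested. snoRNA:83E4-5, snoRNA:CG43051-a, snoRNA:M and snoRNA:MeU6-A47 had no reads.

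**Figure D5:**
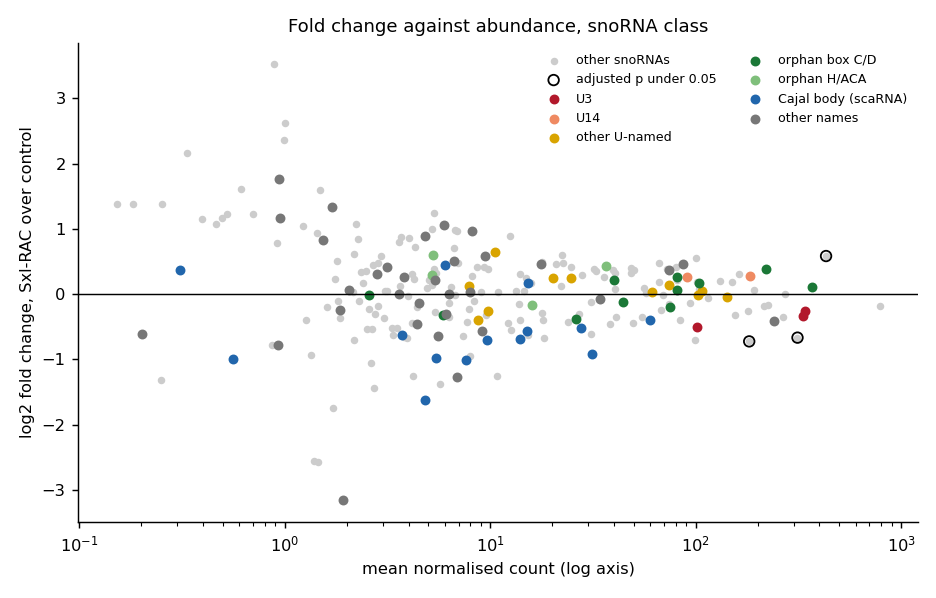
Log2 fold change, Sxl-RAC over control, against mean normalised count (log axis) for the 248 snoRNAs with reads in the snoRNA class; coloured points are the RNAs described here and rings mark the 3 called genes, all rRNA methylation guides. Values spread widely below a mean count of 10 and narrow above it, and no coloured point is ringed.

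Over all 64 RNAs whose whole reads could be recovered, 6 had every Sxl-RAC library below every control library and 5 had every Sxl-RAC library above, together 17.2%. The same held for 14.8% of the 216 snoRNAs recovered (7.41% lower and 7.41% higher), so the share was near the background. With a mean count of at least 10 it was 6 of 22 RNAs, 27.3%, against 22.4% of 76 snoRNAs. Of the 6 lower RNAs, 4 were scaRNAs, out of 14 scaRNAs recovered (28.6%, beside 7.41% of the 216 snoRNAs). Among these 4, scaRNA:MeU5-U42 had only 5, 3 and 2 whole reads in Sxl-RAC heads and scaRNA:PsiU6-40 only 2, 1 and 3. The share among scaRNAs was not tested.

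The members also differed in their place in the genome. On BDGP6.54, 66 of the 93 lay in an intron of a gene on their own strand, 12 overlapped an exon on it, 8 lay in or over a gene on the other strand and 7 were intergenic. The 17 with reads in Uhg genes had a median log2 fold change of 0.14 by the authors' deposited table and the 11 in ribosomal protein genes 0.11. The median was -0.30 for the 6 intergenic RNAs and -0.14 for the 45 in other genes. Of the 6 intergenic RNAs, 2 were above 0 and 4 below. They include snoRNA:185 and the 3 U3 genes, which may share reads, so this median is largely that of U3. On the microRNA scale the medians of the Uhg and ribosomal protein genes lay just below 0, at -0.014 and -0.042. The 6 intergenic RNAs held 29.3% of the summed mean counts of the members. A group of 4 annotated on the strand opposite to egr (scaRNA:MeU1b-A234, snoRNA:Or-ACA6, snoRNA:Or-ACA7 and snoRNA:Or-CD13) had no reads in either arm.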

How the data were processed

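The data are 1 table in which the authors set Sxl-RAC heads against control heads; the direction, Sxl-RAC over control, comes from the file's name. The deposited base mean is a signal, read counts divided by size factors and averaged over libraries by the authors. The deposited log2 fold change and its standard error are both on the log2 scale, their quotient (the Wald statistic) was deposited as a score, and the deposited p-value and adjusted p-value are those of the authors' test. The submitters' processing notes name Trim Galore 0.6.7, Bowtie2 2.5.3, featureCounts 2.0.8 and DESeq2 2.11.40.8, with no role. The genome build, annotation, strand use and treatment of reads with several matches are not given in the sources used here, nor is the separation of overlapping genes. The labels do not say whether samples came from separate flies, so p-values measure the spread between libraries.

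Identifiers were matched to Ensembl release 115 (BDGP6.54), which gave 3545 of 3546 rows a symbol, and 93 of the 93 RNAs matched the RefSeq table by symbol. Coordinates are 1-based on that annotation. The adjusted p of the 248 snoRNAs of the class equalled a Benjamini-Hochberg adjustment within it to 1%, so the class is treated as a separate run with its own size factors. Of the 93 RNAs, 4 were counted in another class, 2 of them with reads.

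A mean count adds up whole reads, and a read counts the same for every gene of a library. The number of libraries was set to 6, their weights were solved from low values, the arms were those whose ratio followed the authors' fold changes (r across genes of 0.968, next division 0.759), and whole reads were found for 216 of 220 snoRNAs up to a mean count of 100. In the snoRNA class all 39 distinct values under a mean count of 2 could be written so, and all 127 genes under a mean count of 8 had 1 solution. At the deposited standard error the reads gave the deposited fold change within 2.42e-05 for the 177 genes of mean count 2 or more. Below a mean count of 2 some genes missed it by more. The log2 fold change was off by 0.22 for snoRNA:660, 0.24 for scaRNA:PsiU5-44 and 0.25 for scaRNA:PsiU2-55. For mean counts of at least 8 the deposited fold change served to choose among solutions, within 5e-05, or 5e-06 above 20. For these genes the match to the fold change was thus part of the choice and no separate check. The candidate solutions numbered 52 for scaRNA:MeU2-G25 and 10754 for snoRNA:nop5-x16-a, and reads were kept only where a single candidate matched. With so many candidates a single match can be a wrong one. The simulated tables did not check recovered reads over the whole range up to a mean count of 100. Reads per library of the more abundant RNAs, and the overlap of their arms, are therefore less certain. Recovered libraries have no replicate number, so each sentence lists them by falling size factor, and they tie to no listed sample. The search was revised after the data were seen, because an earlier form missed the weights in most simulated tables; both forms gave the same reads here. On several simulated tables, all kept, the revised search did not find the library weights every time. Where it missed them, the reads gave back none of the fold changes checked. Here the reads gave back all 88 of those checked, which had mean counts from 2 to 8. No test was run on these reads. Intervals are 95%. Analyses used Python with numpy, scipy and pandas.

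Named RNAs are those whose mean count reached 10, the 3 most abundant of each group and those with an unadjusted p under 0.05; others are named to account for every RNA with a stated feature. The RNAs, groups and lists were chosen with earlier results of these data known. The control samples' own labels were not analysed here. 1 orphan box C/D RNA with a mean count over 10 is plotted and counted but not described by name in the text.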

Additional observations from a re-analysis of the deposited data

How the results depend on the processing

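The count of called RNAs was 0 under a threshold of 0.1 and under Benjamini-Hochberg adjustment of the authors' DESeq2 p over all genes. It was also 0 over the snoRNA class with a mean count of at least 10, and with no filter, which repeats the authors' own adjustment. It stayed 0 after re-centring on the median of the class, and on the microRNA scale, where 1.61% of the class was called lower and none higher. The median log2 fold change of the RNAs, 0.04, lay between -0.11 (microRNA scale) and 0.05 (mean count of at least 50), so its sign is not fixed. On the microRNA scale 5 named RNAs changed sign: snoRNA:Or-CD11a to -0.042, snoRNA:Or-CD11c to -0.10, snoRNA:U27:54Ea to -0.014, snoRNA:U27:54Eb to -0.12 and snoRNA:U76:54Eb to -0.11. Re-centring took snoRNA:U27:54Eb to -0.025 and snoRNA:U76:54Eb, with the other U-named median, to -0.012. The group medians of other U-named (-0.11), orphan box C/D (-0.10) and other-named RNAs (-0.016), and those of RNAs in ribosomal protein genes (-0.042) and Uhg genes (-0.014), also changed sign on the microRNA scale, by the construction of the shift, while U3 and Cajal body RNAs stayed below 0 and U14 above it. The other named RNAs with a mean count of at least 10 kept their direction under re-centring and the microRNA scale. So did the rarer scaRNAs of mean count 1 or more and those in SC35, Fib and Act57B, added after the data were seen. None was called under either, or under adjustment over all genes, which leaves fold changes as they are.

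After the data were seen, recovered libraries were left out in turn. The log2 ratio of the summed Cajal body methylation guides lay between -0.73 and -0.48, and was -0.76 on the microRNA scale; that of scaRNA:MeU2-G25 lay between -1.09 and -0.73, that of snoRNA:nop5-x16-a between 0.32 and 0.61, and the median over 22 recovered RNAs with a mean count of at least 10 between -0.05 and 0.08. The arms of the summed guides, scaRNA:MeU2-G25 and snoRNA:nop5-x16-a did not overlap, so leaving out a single library could not change their sign. They were chosen after their values were known, and their ranges show only the size of the ratio. The authors' test was not refitted without a library. No paired analysis was possible because the deposited columns carry no replicate number.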
